A study of Drosophila melanogaster with 48 samples.

Results

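The comparison described here sets the 2-3 ribosome pool of a polysome gradient against the 80S monosome pool, in Drosophila melanogaster testes collected 72 h after a pulse of bam. It covers 4 of the 48 libraries of the series, chosen by their labels: 2 of the 2-3 ribosome pool and 2 of the 80S pool. All flies of the series had the genotype bam-/-;hsBam, so both pools carried the same alleles. Pupae raised at 22 °C were put at 37 °C for 30 min and then kept at 25 °C, and there is no group without heat shock among the fraction libraries. The bam gene is needed for dividing spermatogonia to become spermatocytes, and hsBam is a heat-shock copy that switches it on. At 24, 48 and 72 h the gradient fractions were joined by absorbance into 6 pools, from free RNA through 40S, 60S and 80S to 2-3 and 4+ ribosomes, and RNA 3′ ends were counted in 2 libraries for each. The replicates are called biological, with nothing on whether flies were crossed or dissected anew. The p-values below rest on the spread between replicate libraries, shared over all groups in a fit and moderated across genes. That spread may be technical.

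In a sucrose gradient an mRNA travels with the number of ribosomes it holds. The 80S peak holds mRNAs with a single ribosome together with empty ribosomes, and heavier pools hold mRNAs that are being read by several ribosomes at once. Spermatocytes and spermatids are known for making many mRNAs well before the proteins are made, so an mRNA can be abundant and yet sit outside the heavy pools. A short reading frame has room for few ribosomes, so its mRNA can be actively translated and still run as a monosome or a light polysome.

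The 2-3 ribosome libraries held 4260065 and 3963675 listed reads in 8954 and 9407 genes, and the 80S libraries held 6179431 and 5306433 in 9784 and 10006 genes. A site is listed from 10 reads upward. In a gene with a single site, 10 reads are 2.57 and 2.29 CPM in the 2-3 ribosome libraries and 1.71 and 1.70 CPM in the 80S libraries. CPM below are listed reads scaled to a common library size by trimmed means, and each gene's level is the sum over its 3′ end sites. They are shares of a pool from whole testes, and for the level in any single pool fewer cells of a type and less RNA per cell cannot be told apart. Replicates correlated across genes at r = 0.924 in the 2-3 ribosome pool and 0.942 in the 80S pool, and the 4 correlations between pools ran between 0.886 and 0.917. Across genes, the replicate 1 and replicate 2 differences between the pools correlated at 0.427. The 72 h 60S pool stood apart from all other pools: its replicate 2 held 445049 reads in 1870 genes, and its replicates correlated at 0.346. It is no side of this comparison but shares the estimate of spread, so results are given with it and without it. The reads of bam were 46.1 and 55.7 CPM in the 2-3 ribosome libraries and 36.7 and 12.3 CPM in the 80S libraries (log2 difference 1.25 ± 0.88 SE, limma adjusted p = 0.770), and a 3′ tag does not separate hsBam from the resident gene.

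Few genes passed the test between the pools over all 36 libraries, and the 23 that did with the settings used below were all lower in 2-3 ribosomes. Of 10777 genes tested with limma over all 36 fraction libraries and Benjamini-Hochberg adjustment, 23 were lower in the 2-3 ribosome pool (0.213%) and 0 were higher (0%), with 728 lower and 216 higher at an unadjusted p under 0.05. Without both libraries of the 72 h 60S pool, 414 genes of 10774 passed (3.84%). Of these, 343 were lower (3.18%) and 71 higher (0.659%) in the 2-3 ribosome pool, and all 23 were among the 343. With 1 of the 4 libraries left out as well, the count of 414 became 190 without 2-3 ribosomes replicate 1 (43 higher), 151 without its replicate 2 (16 higher), 254 without 80S replicate 1 (25 higher) and 117 without its replicate 2 (27 higher). The wider list rests on the same 4 libraries, so it is not a second measurement. With the 60S pool kept, 50 genes passed without 2-3 ribosomes replicate 1 (2 higher), 15 without its replicate 2 (0 higher), 6 without 80S replicate 1 (1 higher) and 7 without its replicate 2 (2 higher), and between 5 and 14 of the 23 were among them. Of the 23, ms(3)76Cc and CG32454 passed in all 4 of these fits. Both 2-3 ribosome libraries lay below both 80S libraries in 2903 genes (26.9%) and above them in 2082 (19.3%).

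**Figure D1:**
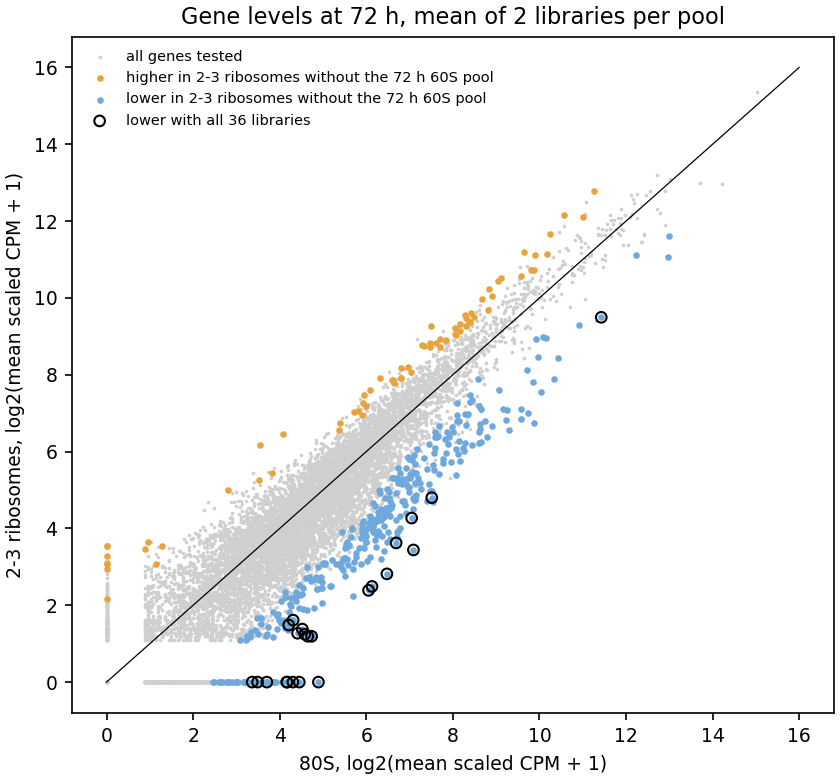
Each point is a gene tested, with log2(mean scaled CPM + 1) over the 2 libraries of the 2-3 ribosome pool upward and of the 80S pool across; the line marks equal levels. The 23 circled genes lie below the line, the 343 blue genes below it and the 71 orange genes above it.

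Of the 23 genes, 7 were listed in all 4 libraries, 5 of them with known products and moderate levels. The myosin V heavy chain gene didum (dm6 chr2R:7500147-7508625, plus strand) stood at 10.6 and 9.16 CPM in the 2-3 ribosome libraries and at 140.5 and 130.0 CPM in the 80S libraries. Nna1 (chrX:13692292-13717835, plus strand), which codes for a carboxypeptidase of the family that trims glutamates from tubulin, had 5.92 and 6.18 CPM in 2-3 ribosomes against 69.5 and 106.7 CPM in 80S. Elys (chrX:19652305-19659407, plus strand), a nuclear pore and chromatin protein gene, had 5.92 and 16.7 CPM in 2-3 ribosomes and 118 and 86.2 CPM in 80S. In each of these genes both 2-3 ribosome libraries were far below both 80S libraries, with no overlap. The log2 differences were -3.77 ± 0.81 for didum (SE, adjusted p = 0.0404, limma with Benjamini-Hochberg), -3.80 ± 0.81 for Nna1 (adjusted p = 0.0389) and -3.32 ± 0.70 for Elys (adjusted p = 0.0381). The malic enzyme gene Menl-2 had 14.2 and 22.4 CPM in 2-3 ribosomes against 119 and 144 CPM in 80S (log2 -2.86 ± 0.56, limma adjusted p = 0.0190). The mind bomb family ubiquitin ligase gene mib2 had 26.5 and 27.3 CPM in 2-3 ribosomes against 123 and 241 CPM in 80S (log2 -2.67 ± 0.55, limma adjusted p = 0.0296). The groups did not overlap in these 2 genes either. None of these 5 genes passed over the remaining libraries when any 1 of the 4 was left out, with limma adjusted p from 0.0615 to 0.564.

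Arc1 was by far the most abundant of the 23. It codes for a protein derived from a retrotransposon Gag, which in Drosophila neurons forms capsids that carry its own mRNA. Its level was 848 and 595 CPM in the 2-3 ribosome libraries and 2826 and 2687 CPM in the 80S libraries, so the 80S pool was higher in every pairing of libraries (log2 -1.96 ± 0.42 SE, limma adjusted p = 0.0389). With the 60S pool kept, Arc1 passed without 2-3 ribosomes replicate 1 (limma adjusted p = 0.0423) but not without its replicate 2 (0.258), 80S replicate 1 (0.206) or 80S replicate 2 (0.299). Without the 60S pool it passed with any 1 of the 4 left out, at adjusted p from 4.70e-04 to 0.00520, an alternative chosen after seeing the data. Of the remaining called genes, CG1801 was listed in all 4 libraries, at 4.89 and 4.35 CPM in 2-3 ribosomes and at 68.4 and 69.9 CPM in 80S (log2 -3.87 ± 0.77, limma adjusted p = 0.0222).

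The other 16 of the 23 were unlisted in at least 1 library of the 2-3 ribosome pool, 8 of them in both. For these the fitted log2 values depend on the 5 reads entered for an unlisted gene, so levels are given and no fold. Their adjusted p depends on these reads too, also through groups at other times in which a gene was unlisted. With unlisted genes at 1 read 15 of the 23 passed, and at 9 reads 22 did, ms(3)76Cc and CG32454 at both settings. The gene ms(3)76Cc (chr3L:19620502-19624309, plus strand), named for a male-sterile mutation, was unlisted in both 2-3 ribosome libraries and had 28.8 and 28.6 CPM in the 80S libraries (limma adjusted p = 0.00416). CG32454 was unlisted in both 2-3 ribosome libraries and had 19.5 and 18.1 CPM in 80S (limma adjusted p = 0.00219). The gene hob, which codes for a large lipid transfer protein, was unlisted in one 2-3 ribosome library and had 8.47 CPM in the other, against 44.9 and 85.9 CPM in 80S (limma adjusted p = 0.0108). Tim17a1, a copy of a subunit of the mitochondrial inner membrane translocase, was unlisted in both 2-3 ribosome libraries and had 11.95 and 29.8 CPM in 80S. Tusp, a Tubby-related gene, and CG3708, CG44434, CG12637 and CG13538 were likewise unlisted in both. Tengl3, a gene of the EndoG-like nuclease family, was unlisted in one 2-3 ribosome library and had 3.60 CPM in the other, against 14.2 and 20.8 CPM in 80S, and the ionotropic receptor gene Ir75d had 2.57 CPM in one library against 27.5 and 20.8 CPM in 80S. CG11227, CG31244, CG18641, CG14017 and CG3611 made up the rest. A library of the 2-3 ribosome pool in which these genes were unlisted could still hold up to 9 reads at each of their sites.

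**Figure D2:**
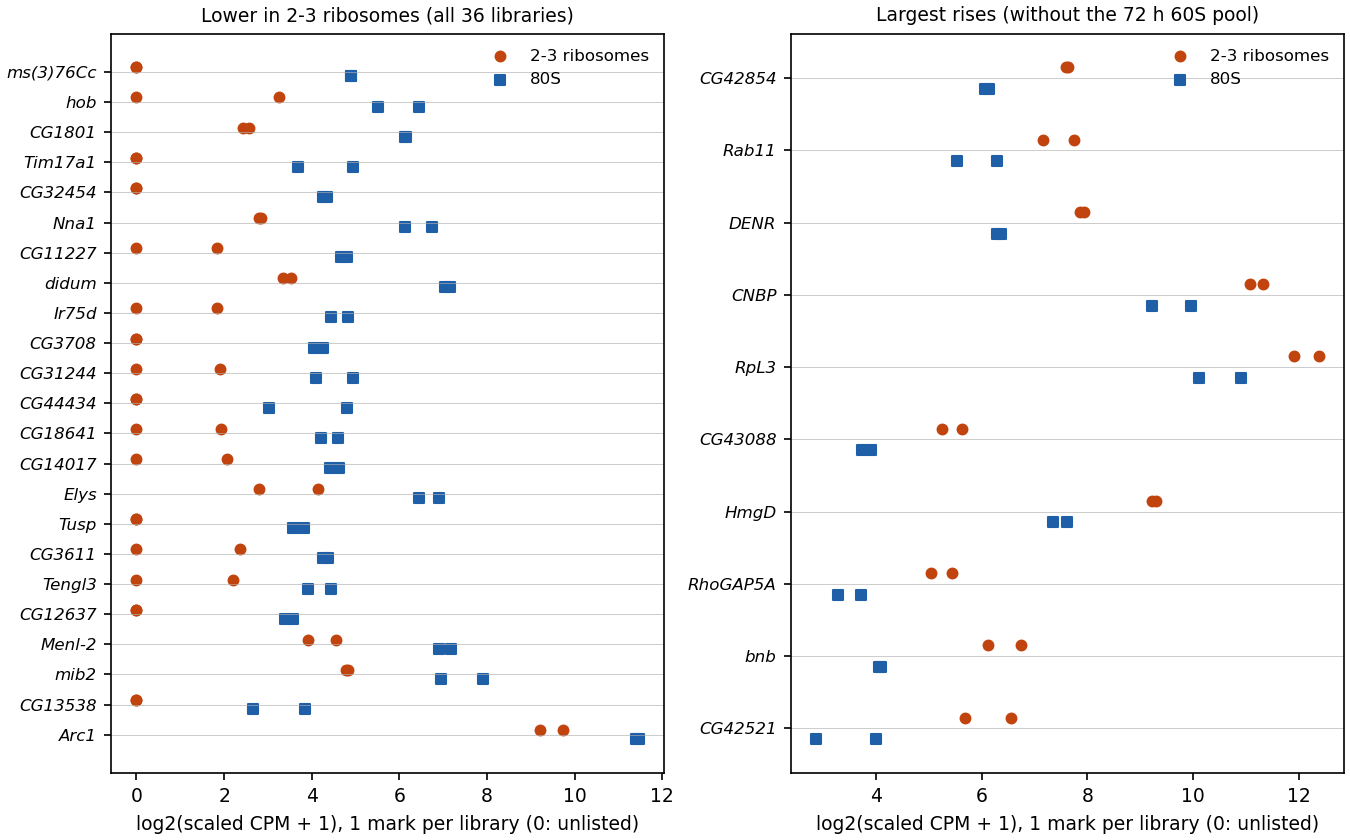
Marks give log2(scaled CPM + 1) of single libraries, with 2-3 ribosomes as circles above and 80S as squares below on each gene's line, and 0 for an unlisted gene. The left panel holds the 23 genes lower in 2-3 ribosomes over all 36 libraries and the right panel the 10 largest rises without the 72 h 60S pool; in no gene shown do the groups overlap.

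Several properties set the 23 beside all genes tested. Their median annotated protein length was 558 residues (range 121 to 2300), and the median over all genes tested lay under 400. At 24 h, 16 of the 23 were unlisted in both 80S libraries (69.6%, against 21.5% of all genes tested), and at 48 h 10 were (43.5%, against 14.9%). Libraries in which a gene is unlisted all enter at 5 reads and share the estimate of spread. Being unlisted at 24 or 48 h thus bears on which genes pass, and these shares are a description. The 80S pool was one side of the contrast that chose the 23, so their place in the other 72 h pools is a description too. Leaving the 60S pool aside, 13 of the 23 had their highest mean level in the 80S pool, 5 in the free pool and 5 in the 40S pool. The median over the 23 genes was 18.6 CPM in the free pool, 22.6 in 40S and 22.9 in 80S. In the 2-3 ribosome pool 16 of the 23 were unlisted in at least 1 library, so no median is given there. In the 4+ ribosome pool all 23 had a lower mean level than in 80S. Arc1 averaged 1002 CPM in the free pool, 2301 in 40S, 2757 in 80S, 721 in 2-3 ribosomes and 180 in 4+ ribosomes.

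**Figure D3:**
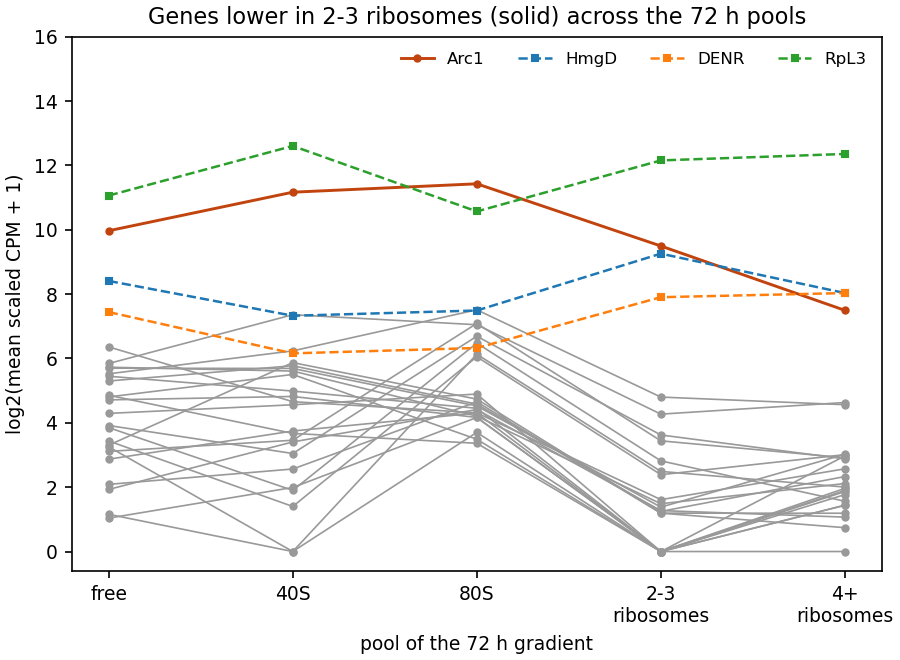
Lines give log2(mean scaled CPM + 1) of a gene over the 2 libraries of each 72 h pool except 60S; solid lines are the 23 genes lower in 2-3 ribosomes than in 80S, Arc1 in colour, and dashed lines are HmgD, DENR and RpL3. Unlisted libraries count as 0, and the solid lines are lower in 2-3 and in 4+ ribosomes than in 80S for all 23 genes.

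No gene rose in the fit of all 36 libraries, and the rises named here are those of the fit without the 72 h 60S pool. Other settings that kept the 60S pool called 3 genes higher with total listed reads as scaling, 1 with median-of-ratios scaling, and 7 or 3 with unlisted genes entered at 1 or 9 reads. The 4 libraries alone gave 111 higher calls. HmgD, which codes for an HMG-box chromatin protein abundant early in development, had 596 and 628 CPM in the 2-3 ribosome libraries and 195 and 163 CPM in the 80S libraries. Its groups were well apart, with a log2 difference of 1.72 and a limma adjusted p of 2.34e-04 without the 60S pool, and an adjusted p of 0.0505 with it. DENR (chrX:16885546-16886560, minus strand), a factor for ribosome recycling and reinitiation, had 232 and 245 CPM in 2-3 ribosomes against 81.2 and 77.2 CPM in 80S (log2 1.53, limma adjusted p = 0.00257 without the 60S pool and 0.205 with it). CNBP, a zinc finger protein that binds nucleic acids, had 2559 and 2168 CPM in 2-3 ribosomes and 995 and 598 CPM in 80S (log2 1.55, limma adjusted p = 3.61e-04 without the 60S pool and 0.152 with it). The recycling endosome GTPase gene Rab11 had 141 and 213 CPM in 2-3 ribosomes and 45.1 and 77.2 CPM in 80S, and bnb (chrX:18794246-18797687, minus strand) had 68.4 and 106.7 CPM in 2-3 ribosomes and 15.7 and 16.2 CPM in 80S. RhoGAP5A, a GTPase-activating protein gene, had 32.2 and 42.6 CPM in 2-3 ribosomes against 8.70 and 12.1 CPM in 80S. RpL3, CG42521, CG43088 and CG42854 complete the 10 largest of these rises. The 71 genes had a median protein length of 193 residues and median mean levels of 423 CPM in 2-3 ribosomes and 159 CPM in 80S. The 343 lower genes had a median of 604 residues and median mean levels of 14.8 CPM in 2-3 ribosomes and 72.2 CPM in 80S. Of the 343, 38 were unlisted in both 2-3 ribosome libraries and 52 in 1 of them, counted there as 0. Over all genes tested the median mean levels were 17.1 CPM in 2-3 ribosomes and 20.4 CPM in 80S. The contrast between these pools chose the 71 and the 343, so the direction of their levels was set by that choice.

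Beyond the 23, the largest falls without the 60S pool included CG32436, CG13991, CG31678, CG42820, CG44435 and ms(2)34Fe, a gene named for a male-sterile mutation. CG44435 has the same annotated span and strand as CG44434 of the 23, so it is not a separate locus. It was unlisted in 2-3 ribosomes replicate 1 and had 29.5 CPM in replicate 2, against 49.5 and 70.9 CPM in 80S. CG32436 had 74.6 and 138 CPM in the 2-3 ribosome libraries and 923 and 960 CPM in the 80S libraries, with its 2-3 ribosome libraries far below both 80S libraries (log2 -3.26, limma adjusted p = 1.59e-04 without the 60S pool and 0.0654 with it). The kinesin gene Klp3A, needed for the spindle of male meiosis, had 14.4 and 10.1 CPM in 2-3 ribosomes and 80.0 and 106.5 CPM in 80S (log2 -2.99, limma adjusted p = 0.0298 without the 60S pool and 0.321 with it).

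Genes of the spermatid and the sperm were lower in the 2-3 ribosome pool as a group. Of 33 measured members of 36, 28 had both 2-3 ribosome libraries below both 80S libraries (26.9% of all genes tested did) and 0 had them above (19.3%). The median log2 difference was -1.58, at -1.67 and -1.58 in replicates 1 and 2, against -0.04 over all genes tested. None passed over all 36 libraries by limma, with 10 lower and 0 higher at an unadjusted p under 0.05. Without the 60S pool 12 of 33 fell (3.18% of all genes did) and none rose. These 12 were S-Lap1, S-Lap2, S-Lap3, S-Lap4, S-Lap5, S-Lap7 and S-Lap8, leucyl aminopeptidases that build up in sperm mitochondria, loopin-1 of the same family, the sperm tail gene family members Mst98Ca and Mst98Cb, djl, and betaTub85D, the testis beta tubulin of meiotic spindles and axonemes. The list and its members were chosen with earlier results known, and the aminopeptidase genes resemble each other in sequence, so reads could be shared between them.

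S-Lap5 had 19.6 and 20.6 CPM in 2-3 ribosomes against 110 and 132 CPM in 80S, and S-Lap8 had 152 and 219 CPM in 2-3 ribosomes against 995 and 1101 CPM in 80S. Mst98Ca had 107 and 81.3 CPM in the 2-3 ribosome libraries and 649 and 607 CPM in the 80S libraries (log2 -2.81, limma adjusted p = 1.93e-04 without the 60S pool and 0.225 with it). S-Lap2 had 239 and 457 CPM in 2-3 ribosomes against 1233 and 1525 CPM in 80S (log2 -2.11, limma adjusted p = 0.00611 without the 60S pool and 0.660 with it). betaTub85D had 345 and 357 CPM in 2-3 ribosomes and 929 and 1064 CPM in 80S (log2 -1.56, limma adjusted p = 0.0465 without the 60S pool and 0.856 with it). In these genes the 2-3 ribosome libraries were below 80S without overlap. Mst77F, a linker histone-like protein of sperm chromatin, had 74.6 and 115.0 CPM in 2-3 ribosomes and 267 and 410 CPM in 80S, and did not pass in either fit (limma adjusted p = 0.585 with the 60S pool and 0.0719 without it). Mst87F, a sperm tail protein gene whose mRNA is known to be stored, had 59.9 and 139 CPM in 2-3 ribosomes and 292 and 333 CPM in 80S (limma adjusted p = 0.764, and 0.105 without the 60S pool). The sperm tail gene dj had 141 and 160 CPM in 2-3 ribosomes and 331 and 414 CPM in 80S (limma adjusted p = 0.910, and 0.226 without the 60S pool). The groups did not overlap in these 3 genes, although none of them passed. In contrast, janB had 308 and 246 CPM in 2-3 ribosomes and 309 and 249.5 CPM in 80S, close to equal within each replicate. Of the 33 measured members, 1 had a log2 difference above 0, at 1.63, and 32 were below 0.

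The 33 genes took a larger share of the pools lighter than the monosome. Their summed level, a share of each pool and not an amount of RNA, was 104012 and 59938 CPM in the free libraries, 29749 and 26528 CPM in 40S, 9828 and 11480 CPM in 80S, 2915 and 3823 CPM in 2-3 ribosomes and 2789 and 3872 CPM in 4+ ribosomes. The sum was thus lowest in both pools with more than a single ribosome, and each library of the free and 40S pools was above each library of the 3 heavier pools named. At 48 h, the 24 members listed in all 4 libraries of these pools had a median log2 difference of -0.63. At 24 h only 3 members were listed in all 4, and no value is drawn from them.

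Related late genes also leaned to the 80S pool, with fewer calls. The cup and comet genes, which are transcribed after meiosis in spermatids, had a median log2 difference of -1.16 over 14 measured members of 19, with 10 below 80S without overlap and 0 above (26.9% and 19.3% of all genes tested). The 1 that fell without the 60S pool was hmw, at 19.6 and 15.6 CPM in 2-3 ribosomes against 68.1 and 77.0 CPM in 80S (log2 -2.11, limma adjusted p = 0.0169 without the 60S pool and 0.229 with it). Axonemal dynein and Y-linked fertility genes had a median of -0.70 over 13 measured members of 23, of which 6 lay below 80S without overlap and 0 above, beside the same shares over all genes. The median of these 13 was -0.99 in replicate 1 and -0.14 in replicate 2. They were low throughout, with a summed 74.6 and 169 CPM in 2-3 ribosomes and 191 and 233 CPM in 80S. Of the 13, 6 were listed in all 4 libraries, 4 were unlisted in both 2-3 ribosome libraries and 3 in both 80S libraries. The median thus depends in part on the reads entered for an unlisted gene. The most abundant member of the first list, c-cup, had 105 and 118 CPM in 2-3 ribosomes and 133 and 129.5 CPM in 80S (log2 -0.23 ± 0.64, limma adjusted p = 0.961), and that of the second, the dynein heavy chain gene Dhc98D, had 17.0 and 47.6 CPM in 2-3 ribosomes and 33.1 and 52.5 CPM in 80S, with overlapping groups (log2 -0.53 ± 0.84, limma adjusted p = 0.916). None of the 13 passed limma in either fit, with 3 lower and 1 higher at an unadjusted p under 0.05.

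**Figure D4:**
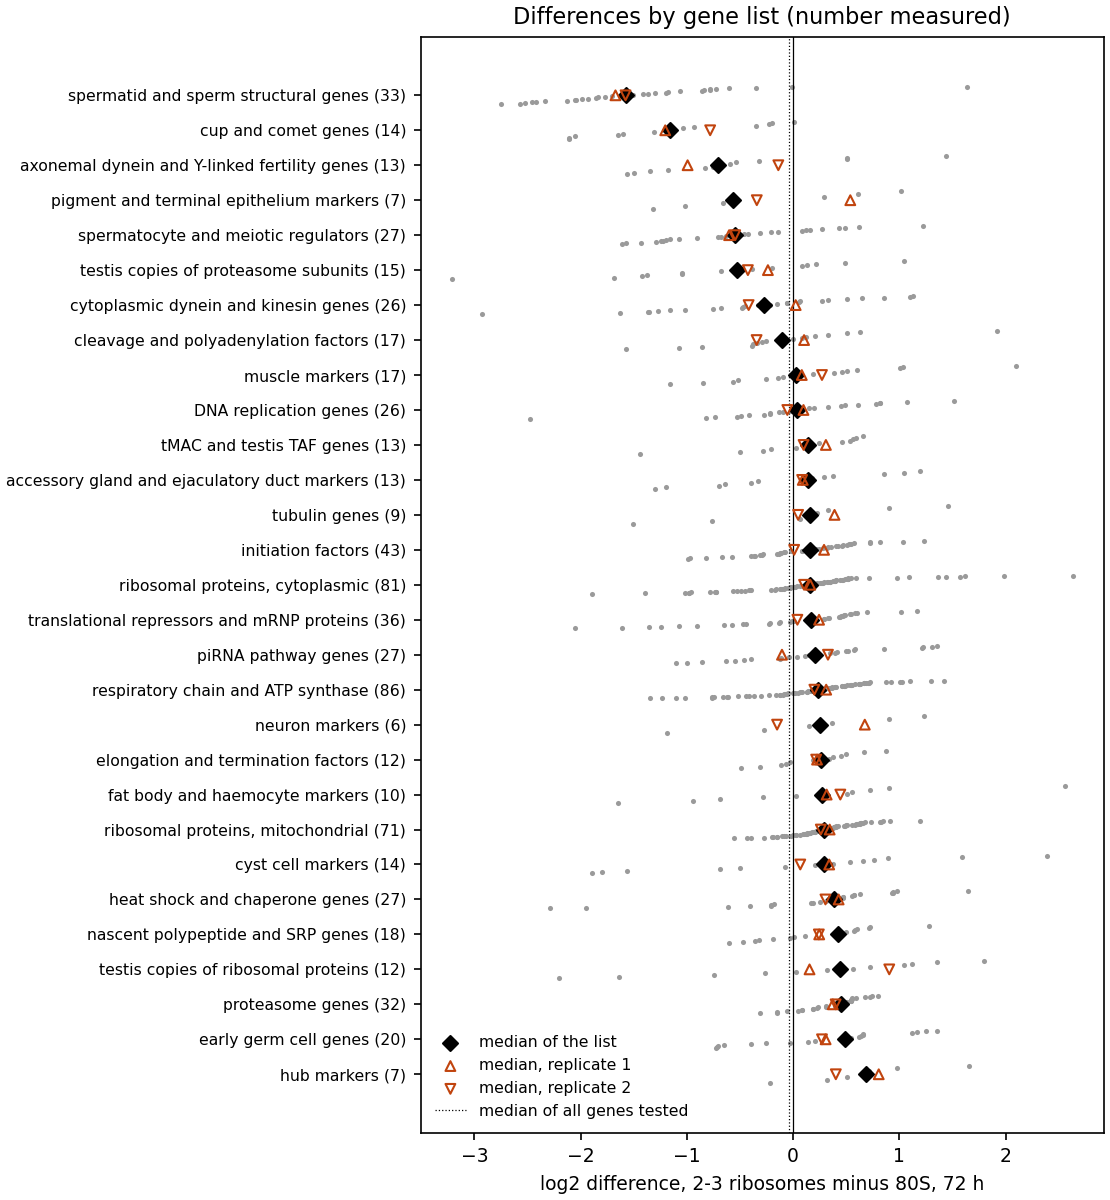
Grey points are the genes of a list at their log2 difference, 2-3 ribosomes minus 80S; diamonds are list medians, triangles the medians of replicates 1 and 2, and the number measured is in brackets. The spermatid and sperm list lies furthest to the left, at -1.58, and the proteasome list is at 0.45.

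Spermatocyte and meiotic regulators shifted less. Of 27 measured members of 33, 17 lay below 80S without overlap (26.9% of all genes tested did) and 4 above (19.3%), with a median log2 difference of -0.55. None passed over all 36 libraries by limma, with 3 lower and 0 higher at an unadjusted p under 0.05. The 3 that fell without the 60S pool were orb, a CPEB protein, Gld2, a cytoplasmic poly(A) polymerase, and bru1, a Bruno family repressor. Gld2 had 95.2 and 178 CPM in 2-3 ribosomes and 311 and 486 CPM in 80S (log2 -1.62, limma adjusted p = 0.00548 without the 60S pool and 0.185 with it). The mRNA for orb had 38.8 and 48.3 CPM in 2-3 ribosomes and 113 and 156 CPM in 80S (limma adjusted p = 0.0480 without the 60S pool and 0.649 with it). For bru1 the levels were 78.7 and 85.7 CPM in 2-3 ribosomes and 158 and 239 CPM in 80S (limma adjusted p = 0.0344 without the 60S pool and 0.433 with it). In all 3 genes both 2-3 ribosome libraries were below both 80S libraries.

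Cell cycle genes that are held back until meiosis were also measured. CycB, the B-type cyclin, had 36.3 and 61.8 CPM in 2-3 ribosomes against 100.2 and 112 CPM in 80S (log2 -1.16 ± 0.72, limma adjusted p = 0.713, and 0.121 without the 60S pool). The Cdc25 gene twe, needed to enter the meiotic divisions, had 7.98 and 7.56 CPM in 2-3 ribosomes and 16.2 and 20.6 CPM in 80S (log2 -1.22 ± 1.12, limma adjusted p = 0.886). The groups did not overlap in CycB or twe, and neither passed. The boule homologue bol, an RNA-binding protein that twe translation depends on, had 193 and 238 CPM in 2-3 ribosomes and 283 and 348 CPM in 80S (limma adjusted p = 0.881). The gene fest had 2558 and 2800 CPM in 2-3 ribosomes and 3530 and 4877 CPM in 80S (limma adjusted p = 0.804). Rbp4, an RNA-binding protein that represses CycB mRNA, had 235 and 144 CPM in 2-3 ribosomes and 194 and 141 CPM in 80S, with overlapping groups (log2 0.16 ± 0.49, limma adjusted p = 0.965).

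Genes of earlier germ line stages and of the spermatocyte transcription programme had no call over all 36 libraries. The tMAC and testis TAF genes had a median of 0.14 over 13 measured members of 14, with 5 above 80S without overlap and 0 below. Over all genes tested 19.3% lay above and 26.9% below, the shares to set beside each such count in this paragraph. None passed limma in either fit, and 0 had an unadjusted p under 0.05 over all 36 libraries. The most abundant of these, wuc, had 520 and 423 CPM in 2-3 ribosomes and 359 and 323 CPM in 80S. Early germ cell genes had a median of 0.49 over 20 measured members of 21, with 4 above and 3 below without overlap, and their most abundant member chinmo, a zinc finger gene of early germ and cyst lineages, had 251 and 179.5 CPM in 2-3 ribosomes and 206 and 226 CPM in 80S. DNA replication genes were centred at 0.04 (26 members), a sign that turns to -0.07 under median-of-ratios scaling, and RPA3, the small subunit of replication protein A, was the 1 that rose without the 60S pool, at 132 and 114 CPM in 2-3 ribosomes and 56.8 and 60.0 CPM in 80S (limma adjusted p = 0.0480, and 0.425 with the 60S pool). Over all 36 libraries 1 replication gene was higher and 1 lower at an unadjusted p under 0.05. The median of this list was 0.10 in replicate 1 and -0.05 in replicate 2. The piRNA pathway genes had a median of 0.21 over 27 members, at -0.10 and 0.33 in replicates 1 and 2. Of these genes 5 lay above (18.5%) and 4 below (14.8%). Neither the early germ cell list nor the piRNA list had a gene past limma in either fit, and 0 had an unadjusted p under 0.05. Of 17 cleavage and polyadenylation genes 5 lay above and 4 below, and Gld2 was the 1 that fell without the 60S pool. Of 26 cytoplasmic dynein and kinesin genes 5 lay above (19.2%) and 8 below (30.8%), near the all-gene shares, and Klp3A was the 1 that fell. Of 9 tubulin genes 3 lay above and 2 below, and betaTub85D was the 1 that fell, while the general gene alphaTub84B had 3171 and 1928 CPM in 2-3 ribosomes and 2188 and 2242 CPM in 80S, with overlapping groups. Over all 36 libraries none of these 3 lists had a call (limma), with 1, 0 and 0 higher and 1, 2 and 0 lower at an unadjusted p under 0.05.

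Proteasome subunits were mostly at higher levels in the 2-3 ribosome pool. Of 32 proteasome genes, 19 lay above 80S without overlap (19.3% of all genes tested did) and 0 below (26.9%), with a median log2 difference of 0.45, at 0.37 and 0.40 in replicates 1 and 2. The largest was 0.80, for Prosbeta5 of the catalytic core, at 524 and 480 CPM in 2-3 ribosomes and 330 and 252 CPM in 80S. The most abundant, Prosbeta6, had 1122 and 868 CPM in 2-3 ribosomes and 826 and 548 CPM in 80S. None of the 32 passed limma in either fit, and 0 had an unadjusted p under 0.05 over all 36 libraries. The 15 testis copies of proteasome subunits, which replace the general subunits in male germ cells, had a median of -0.53, with 5 below and 4 above without overlap. Over all 36 libraries none passed limma, with 2 lower and 0 higher at an unadjusted p under 0.05. The testis copy Prosbeta2R1 had 3.34 and 2.29 CPM in 2-3 ribosomes against 25.4 and 28.3 CPM in 80S (log2 -3.27, limma adjusted p = 0.0179 without the 60S pool and 0.118 with it). Prosalpha1R, the copy with the highest level, had 335 and 305 CPM in 2-3 ribosomes and 272 and 191 CPM in 80S and did not pass (limma adjusted p = 0.910).

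Mitochondrial ribosomal protein genes had a median of 0.29 over 71 members, of which 23 lay above 80S without overlap and 2 below. The shares over all genes tested were 19.3% above and 26.9% below. One rose without the 60S pool, mRpS33, at 153 and 137 CPM in 2-3 ribosomes and 62.1 and 64.3 CPM in 80S (limma adjusted p = 0.0480, and 0.653 with the 60S pool). Respiratory chain and ATP synthase genes had a median of 0.23 over 86 members, with 33 above and 14 below, beside the same shares over all genes. Without the 60S pool 2 of the 86 rose and 2 fell by limma. The complex I gene ND-13B had 501 and 345 CPM in 2-3 ribosomes and 224 and 127 CPM in 80S, while SdhA of complex II averaged 38.6 CPM in 2-3 ribosomes and 98.7 CPM in 80S (n = 2 each), with a log2 difference of -1.35 ± 0.67 (SE). UQCR-6.4, a 57-residue subunit of complex III, had 645 and 335 CPM in 2-3 ribosomes against 1201 and 733 CPM in 80S. ATPsyndelta of the ATP synthase was the other gene that rose, at 536 and 514 CPM in 2-3 ribosomes and 324 and 212 CPM in 80S. Over all 36 libraries no gene of either list passed limma, and 0 had an unadjusted p under 0.05. The most abundant members passed in neither fit: mRpL34 had 671 and 456 CPM in 2-3 ribosomes and 786 and 568 CPM in 80S, and ATPsynepsilonL had 4292 and 3534 CPM in 2-3 ribosomes and 3545 and 2462 CPM in 80S. Median-of-ratios scaling put the all-gene median at -0.15, and on that scale the list medians were 0.34 for the proteasome, 0.19 for mitochondrial ribosomal proteins, 0.12 for the respiratory chain, 0.05 for initiation factors, 0.05 for cytoplasmic ribosomal proteins, 0.06 for the piRNA pathway and 0.02 for tMAC and testis TAF genes.

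In the 5 lists of translation and folding genes that follow none passed limma over all 36 libraries, and at an unadjusted p under 0.05 there were 1 higher among initiation factors, 1 higher among nascent chain genes, 1 lower among chaperones and 2 lower among repressors. Initiation factors had a median of 0.16 over 43 members with 17 above and 7 below without overlap. Over all genes tested 19.3% lay above and 26.9% below, the shares to set beside each such count in these lists. The factor eIF1A, which acts in start codon scanning, had 403 and 566 CPM in 2-3 ribosomes and 169 and 246 CPM in 80S, and rose without the 60S pool (log2 1.17, limma adjusted p = 0.00701, and 0.276 with it). The cap-binding protein gene eIF4E1 had 348 and 327 CPM in 2-3 ribosomes and 268 and 324 CPM in 80S, and did not pass (log2 0.19 ± 0.42, limma adjusted p = 0.943). The poly(A) binding protein gene pAbp, the most abundant of the list, had 1402 and 1789 CPM in 2-3 ribosomes and 1715 and 2447 CPM in 80S, with overlapping groups. Of 12 elongation and termination factors 6 lay above and 2 below, and eEF1delta rose without the 60S pool, at 862 and 778 CPM in 2-3 ribosomes and 490 and 409 CPM in 80S. The nascent polypeptide and signal recognition genes had a median of 0.42 over 18 members, with 5 above and 3 below. The beta subunit gene of the nascent polypeptide associated complex, bic, had 1038 and 958 CPM in 2-3 ribosomes and 414 and 405 CPM in 80S (log2 1.23, limma adjusted p = 0.00415 without the 60S pool and 0.461 with it). Heat shock and chaperone genes had a median of 0.39 over 27 members, with 14 above and 3 below. Hsp83, the Hsp90 gene, rose without the 60S pool, at 1556 and 1863 CPM in 2-3 ribosomes and 863 and 917 CPM in 80S, and Hsp60B, a testis form of the mitochondrial chaperonin, fell, at 58.7 and 84.7 CPM in 2-3 ribosomes and 314 and 382 CPM in 80S. Hsc70-4, the main constitutive Hsp70 gene, had 2010 and 1545 CPM in 2-3 ribosomes and 2240 and 1842 CPM in 80S, with overlapping groups. Translational repressors and mRNP proteins had 12 above and 10 below of 36, and 4 fell without the 60S pool, namely orb and bru1 from above, smg and twin. The gene smg, which codes for the repressor Smaug, had 11.8 and 22.9 CPM in 2-3 ribosomes and 58.5 and 82.5 CPM in 80S. The gene twin, which codes for the deadenylase Ccr4, had 93.4 and 88.2 CPM in 2-3 ribosomes and 217 and 249 CPM in 80S.

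Markers of the somatic cells that a testis preparation can hold were also measured. None passed limma over all 36 libraries, and the list medians were 0.30 for cyst cell, 0.03 for muscle, 0.27 for fat body and haemocyte, -0.57 for pigment and terminal epithelium, 0.14 for accessory gland and ejaculatory duct, 0.68 for hub and 0.26 for neuron markers. The muscle median turned to -0.09 under median-of-ratios scaling. In replicates 1 and 2 the medians were 0.54 and -0.34 for the pigment list and 0.67 and -0.15 for the neuron list, so their signs were not held. The other marker lists had the same sign in both replicates. The summed level of 17 muscle markers was 1281 and 1063 CPM in the 2-3 ribosome libraries and 827 and 825 CPM in the 80S libraries. The sum of 14 cyst cell markers was 312 and 362 CPM in 2-3 ribosomes and 247 and 273 CPM in 80S, that of 10 fat body and haemocyte markers 365 and 557 CPM in 2-3 ribosomes and 288 and 345 CPM in 80S, and that of 7 pigment and terminal epithelium markers 357 and 326 CPM in 2-3 ribosomes and 168 and 224 CPM in 80S. In these 4 sums the groups did not overlap, but each gap rested on its most abundant gene. Without Tm1 the muscle sum was 435 and 460 CPM in 2-3 ribosomes and 479 and 460.2 CPM in 80S, and the groups overlapped without Wnt2 in the cyst cell sum, without Adh in the fat body sum and without shep in the pigment sum. They overlapped in the sums of 13 accessory gland and ejaculatory duct markers (439 and 783 CPM in 2-3 ribosomes, 595 and 1059 CPM in 80S), 7 hub markers (122 and 153 CPM in 2-3 ribosomes, 65.4 and 128 CPM in 80S) and 6 neuron markers (339 and 264 CPM in 2-3 ribosomes, 239 and 305 CPM in 80S). Both 2-3 ribosome libraries lay above both 80S libraries in 4 of 14 cyst cell, 5 of 17 muscle, 3 of 10 fat body and 2 of 7 pigment markers, and below them in 5, 2, 2 and 0. Over all genes tested 19.3% lay above and 26.9% below. The defining markers TpnC25D of muscle, Lsp1beta of fat body and esg of the hub were unlisted in all 4 libraries. Of all these markers, Tm1, a tropomyosin gene, was the 1 that passed without the 60S pool, at 846 and 603 CPM in 2-3 ribosomes and 348 and 365 CPM in 80S (limma adjusted p = 0.0430, and 0.558 with the 60S pool). The part of somatic RNA in the differences between the pools was not tested.

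Cytoplasmic ribosomal protein genes split by the length of the protein. All 81 were measured, with a median log2 difference of 0.16. Of them 19 lay above 80S without overlap (23.5%) and 9 below (11.1%). Over all genes tested 19.3% lay above and 26.9% below, the shares to set beside the counts by length as well. None passed limma over all 36 libraries (6 higher and 2 lower at an unadjusted p under 0.05), and without the 60S pool RpL3 and RpLP2 rose and RpL41 and RpL39 fell. The 9 genes for proteins under 100 residues had a median of -0.98, with 6 below without overlap and 0 above, while the 71 longer ones had a median of 0.20, with 3 below and 19 above, and 1 gene had no annotated length. RpL41, whose protein has 25 residues, had 2491 and 1819 CPM in the 2-3 ribosome libraries and 6836 and 9155 CPM in the 80S libraries (log2 -1.95, limma adjusted p = 8.00e-04 without the 60S pool and 0.403 with it). RpL39, with 51 residues, had 3942 and 2333 CPM in 2-3 ribosomes and 10160 and 6287 CPM in 80S (log2 -1.46, limma adjusted p = 0.00718 without the 60S pool and 0.402 with it). RpL3, with 416 residues, had 5308 and 3819 CPM in 2-3 ribosomes and 1928 and 1112 CPM in 80S (log2 1.56, limma adjusted p = 0.0310 without the 60S pool and 0.538 with it). The stalk protein gene RpLP2, with 113 residues, had 9300 and 4793 CPM in 2-3 ribosomes and 2776 and 2171 CPM in 80S (limma adjusted p = 0.00987 without the 60S pool and 0.236 with it). RpS26, the most abundant of the list, had 10330 and 6007 CPM in 2-3 ribosomes and 15960 and 10750 CPM in 80S, with groups that nearly met (limma adjusted p = 0.887). RpL5 was near equal, at 417 and 266 CPM in 2-3 ribosomes and 402 and 286 CPM in 80S. Summed over the 81 genes the level was 313765 and 215678 CPM in 2-3 ribosomes and 304654 and 215730 CPM in 80S, and both replicate 1 libraries stood above both replicate 2 libraries.

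Over all genes the differences were low at both ends of the protein length range. Among genes listed in all 4 libraries, the median log2 difference was -0.51 under 100 residues (431 genes), 0.18 from 100 to under 200 (1346), 0.12 from 200 to under 400 (2486), -0.10 from 400 to under 800 (2589) and -0.31 at 800 residues and over (1450). Replicates 1 and 2 gave -0.43 and -0.46 under 100 residues, 0.23 and 0.16 from 100 to under 200, and -0.31 and -0.33 at 800 and over. The spermatid and sperm list was low at both lengths, at -1.39 over 6 genes under 100 residues and -1.70 over 27 longer ones. Over all genes tested, both 2-3 ribosome libraries lay below both 80S libraries in 37.1% of genes under 100 residues, 20.2% from 100 to under 200 and 36.9% at 800 and over. The rank correlation of length with the difference was weak (Spearman rho -0.14 over 10752 genes that share the 4 libraries, given as a description). The low values under 100 residues were also present at the earlier times in their own libraries, with medians of -0.49 at 48 h and -0.61 at 24 h over the genes tested that were listed in all 4 libraries of that time. At 800 residues and over those medians were -0.12 at 48 h and 0.04 at 24 h. Length was not separated from level in these values.

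**Figure D5:**
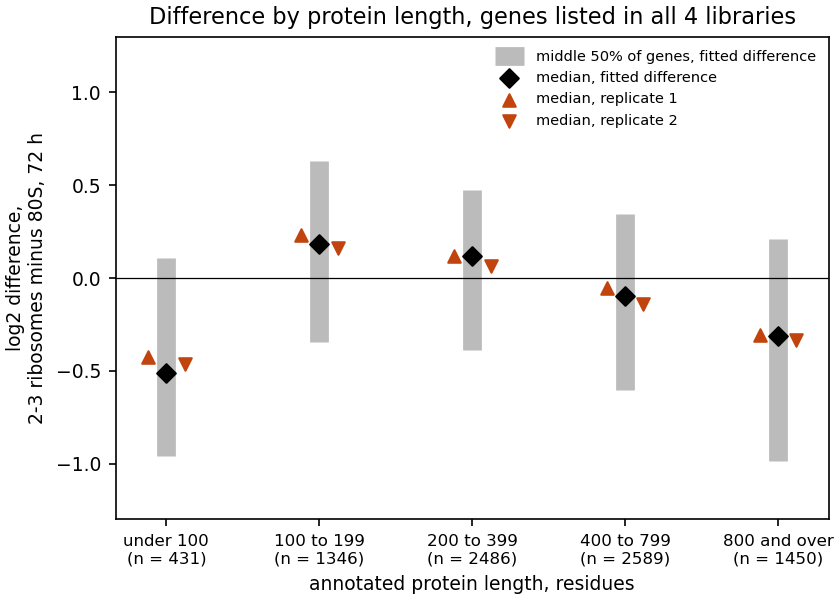
Genes listed in all 4 libraries are binned by annotated protein length, and the upright axis is the log2 difference, 2-3 ribosomes minus 80S at 72 h. Bars span the middle 50% of genes, diamonds are medians and triangles are replicate medians; the medians are -0.51 under 100 residues, 0.18 from 100 to under 200 and -0.31 at 800 and over.

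The difference between the pools was then set against the same difference at 48 h and 24 h, each in its own libraries. By limma over all 36 libraries, 0 genes differed between 72 h and 48 h (420 at an unadjusted p under 0.05) and 0 between 72 h and 24 h (494). Without the 72 h 60S pool, 0 differed from 48 h (771 at an unadjusted p under 0.05) and 8 from 24 h (0.0743%), 7 of them lower at 72 h (0.065%) and 1 higher (0.00928%). The gene chb, which codes for the microtubule protein CLASP, had 22.4 and 38.5 CPM in 2-3 ribosomes and 174 and 193 CPM in 80S at 72 h, and 25.1 and 24.0 CPM in 2-3 ribosomes and 8.68 and 7.36 CPM in 80S at 24 h. Its 2-3 ribosome level was thus alike at both times, and its 80S level was not. RpLP2 ran the other way, at 7640 and 6033 CPM in 2-3 ribosomes and 11880 and 12780 CPM in 80S at 24 h, against the values above at 72 h. Tested in its own libraries over all 36, the 48 h contrast called 1 gene (0.00928%), which was Arc1, at 528 and 678 CPM in 2-3 ribosomes and 4365 and 3625 CPM in 80S (log2 -2.73 ± 0.42, limma adjusted p = 0.00509). At 24 h the contrast also called 1 gene (0.00928%), CG11103, at 8.04 and 11.2 CPM in 2-3 ribosomes and unlisted in both 80S libraries. Without the 72 h 60S pool the 48 h contrast called 21 genes (0.195%), of which 3 were higher (0.0278%) and 18 lower (0.167%), and the 24 h contrast called 39 (0.362%), of which 3 were higher (0.0278%) and 36 lower (0.334%). At 24 h Arc1 had 615 and 881 CPM in 2-3 ribosomes and 3013 and 4129 CPM in 80S (log2 -2.26 ± 0.42, limma adjusted p = 0.0507). The mRNA was lower in the 2-3 ribosome libraries than in the 80S libraries at all 3 times, and the size of the difference at 72 h was not shown to differ from that at 48 h (difference 0.78 ± 0.59 in log2, limma adjusted p = 1.00) or 24 h (0.30 ± 0.59, limma adjusted p = 0.999).

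Within genes, the use of 3′ end sites gave few calls between the pools. A pair of sites, proximal and distal to the stop codon, could be tested in 3245 genes by limma with Benjamini-Hochberg adjustment, and 3 passed (0.0924%), all with more distal use in 2-3 ribosomes, with 194 toward distal and 110 toward proximal at an unadjusted p under 0.05. In 2 of the 3, eIF4E4 and Prosbeta3, the sites lay 74 and 67 nt apart, near the distance at which neighbouring sites were merged, so a shift of a single site cannot be told apart from a change of sites. The third was Wdr62, which codes for a spindle pole and centriole protein, with sites 169 nt and 982 nt past the stop codon at dm6 chr2L positions 1943134 and 1943947 on the plus strand. Its distal share was 40.0% of 50 reads and 36.1% of 108 reads in the 2-3 ribosome libraries, and 3.62% of 442 reads and 0% of 459 reads in the 80S libraries (log2 proximal over distal -4.72 ± 0.82, limma adjusted p = 0.0304). The call was lost when any 1 of the 4 libraries was left out, with limma adjusted p from 0.0586 to 0.256. Prosbeta3 was likewise lost in all 4 cases (0.0635 to 0.295) and eIF4E4 without either 80S library (0.0568 and 0.136). Without 80S replicate 1 the 2 pairs that passed, and without its replicate 2 the 1 pair that passed, ran the other way, towards proximal use. A site under 10 reads is unlisted, which limits how low the 80S shares can be read. Among the 2556 pairs over 100 nt apart taken alone 0 passed (167 toward distal and 88 toward proximal at an unadjusted p under 0.05).

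Across those 2556 pairs the median distal share was 48.9% and 47.9% in the 2-3 ribosome libraries, against 43.7% and 44.2% in the 80S libraries. The median log2 ratio of proximal to distal differed by -0.24 and -0.20 in replicates 1 and 2. The same median at 48 h was -0.13 and -0.09, over 2248 and 2123 of these pairs. At 24 h it was -0.05 and -0.07, over 2095 and 2085. The pairs were chosen by their sites and reads in the 72 h libraries, so no trend over time is drawn from these medians. The distal share was higher in both 2-3 ribosome libraries than in both 80S libraries in 631 pairs (24.7%) and lower in 372 (14.6%), where over all 3245 pairs the shares were 23.5% and 14.1%. Single genes went either way without passing. The distal site of betaTub85D, 231 nt past the proximal one, held 91.0% and 86.8% of the pair in 2-3 ribosomes and 98.9% and 98.4% in 80S (limma adjusted p = 0.126). The pyruvate kinase gene PyK had distal shares of 1.67% and 0% in 2-3 ribosomes and 14.7% and 9.61% in 80S (limma adjusted p = 0.126).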

How the data were processed

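Libraries of polysome gradient pools were made with the QuantSeq 3′ FWD kit, per the labels' protocols. The submitters' processing notes name the aligner Bowtie 0.12.8 and the build dm6. In the deposited files each cell packs 3′ end positions of a stop codon with their read counts as text, which is another kind of unit than a count matrix. No deposited site has under 10 reads or lies within 50 nt of its neighbour. Reads and not molecules were counted.

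Pairs were unpacked in Python 3.11.15 and summed per gene. Genes listed in both libraries of at least 1 of the 18 groups were tested, and an unlisted gene entered at 5 reads. Levels were scaled by trimmed means and tested with limma 3.58.1 (voom, robust moderated statistics) in R 4.3.3, with all 36 fraction libraries in a model with 1 term per pool and time, Benjamini-Hochberg threshold 0.05; the contrast is 2-3 ribosomes minus 80S. The 12 lysate libraries were not used. The test was tried on simulated reads. For site choice, sites were joined within 50 nt and log2(proximal/distal) of the most used pair was tested in limma, with at least 30 reads at the pair in each of the 4 libraries (other libraries with fewer were left out for that pair) and each site at 5% or more of it in a group. Minus-strand rows are keyed at the start codon, so stop codons were taken from the annotation. Protein lengths and gene positions come from the Ensembl release 115 annotation of the same assembly (11977 of 11997 gene names matched), where RefSeq lengths had been planned.

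Named genes were the genes called over all 36 libraries, the 10 largest rises and falls without the 72 h 60S pool (mean log2 CPM of at least 4, no overlap), up to 3 called members and the most abundant member of each list, and 13 genes of prior interest. As no rise passed over all 36 libraries, the rule was applied to the fit without the 60S pool. The genes janB, Prosbeta5, ATPsyndelta, RpS13, RpS19b and RpL10Aa and the site and time examples were chosen after their values were seen. Members and lists were chosen with earlier results of these data known.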

Additional observations from a re-analysis of the deposited data

Results flagged for a closer look

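Without the 72 h 60S pool, the 2-3 ribosomes minus 80S difference at 72 h differed from that at 24 h in 8 genes by limma with Benjamini-Hochberg adjustment, and none of them passed over all 36 libraries. The 72 h minus 24 h change of that difference, in log2, was -6.54 for Rfx (adjusted p = 0.0366), -4.91 for didum (0.0424), -4.44 for ms(3)76Cc (0.0366), -4.30 for chb (0.0424), -4.25 for the tubulin glutamylase gene TTLL6B (0.0424), -3.83 for CG32454 (0.0366), -3.70 for Ir75d (0.0366) and 2.23 for RpLP2 (0.0366). At 24 h, ms(3)76Cc, CG32454 and Ir75d were unlisted in all 4 libraries, and Rfx and TTLL6B in both 80S libraries, so these values depend on the reads entered for an unlisted gene. Rfx, a winged helix transcription factor gene, was unlisted in both 2-3 ribosome libraries at 72 h and had 17.1 and 20.1 CPM in 80S, and at 24 h had 5.26 and 5.24 CPM in 2-3 ribosomes. TTLL6B had 45.5 and 38.7 CPM in 2-3 ribosomes and 167 and 242 CPM in 80S at 72 h, and 2.05 and 4.65 CPM in 2-3 ribosomes at 24 h. At 24 h didum had 9.50 and 6.54 CPM in 2-3 ribosomes and 4.77 and 2.88 CPM in 80S.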

How the results depend on the processing

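The count of 23 genes depended on which libraries shared the spread. It was 44 (3 higher) with total listed reads as scaling, 48 (1 higher) with median-of-ratios scaling, which put the all-gene median at -0.15 in place of -0.04, and 48 (7 higher) or 68 (3 higher) with unlisted genes at 1 or 9 reads. It was 29 with no filter. It was 0 among genes listed in all 4 libraries (619 at an unadjusted p under 0.05) and 0 in the 12 libraries of 72 h alone (422), 466 (111 higher) in the 4 libraries compared alone and 414 without the 72 h 60S pool. Leaving out each library gave 6 to 50 calls, and 5 to 14 of the 23 passed again (50 without 2-3 ribosomes replicate 1, 15 without replicate 2, 6 without 80S replicate 1 and 7 without replicate 2). A pool left with 1 library was assumed to vary like the others. Alternatives chosen after seeing the data gave, without the 60S pool, 283 calls among genes listed in all 4 libraries and 117 to 254 when each library was left out as well. The 23 genes kept their direction in each of these fits that held them. The 72 h and 24 h differences differed in 8 genes without the 60S pool and in 0 otherwise. Over all genes, replicate numbers were not shown to pair the libraries (r of same-numbered deviations 0.170). Yet proteasome, respiratory chain and mitochondrial ribosomal protein genes had higher sums in replicate 1 in every 72 h pool except 60S, which was not summed. Spermatocyte and meiotic regulators had lower ones in each. Counts without overlap take no account of such differences between replicates. With a replicate block 3 site pairs and 24 genes passed (1 higher), 21 of these genes among the 23. Nna1 (limma adjusted p = 0.0520) and CG14017 (0.0648) did not.

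For sites, 8 pairs passed in the 4 libraries alone (2 towards proximal use), 0 among pairs over 100 nt apart (chosen after seeing the data), and 1 to 4 without each library. The median difference of genes under 100 residues minus that from 100 to under 200 was -0.57, and -0.69 for genes listed in all 4 libraries, -0.73 with unlisted genes at 1 read and -0.47 to -0.66 without each library. At 800 residues and over it was -0.48, then -0.56 with unlisted genes at 1 read and -0.32 to -0.67 without each library. The causes of these changes were not tested. At this depth a 2-3 ribosome level under about 2.57 CPM is not read.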

Other observations

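Testis copies of ribosomal proteins did not move as a block. Of 12 measured, 6 lay above 80S without overlap and 2 below, against 19.3% and 26.9% of all genes tested. None passed limma in either fit, with 1 higher and 1 lower at an unadjusted p under 0.05. RpS19b had 409 and 567 CPM in 2-3 ribosomes and 107 and 181 CPM in 80S (limma adjusted p = 0.651), RpL10Aa had 3.09 and 7.10 CPM in 2-3 ribosomes and 21.9 and 22.2 CPM in 80S (limma adjusted p = 0.518), and RpS5b had 1866 and 1680 CPM in 2-3 ribosomes and 1667 and 1202 CPM in 80S (limma adjusted p = 0.953). The first of these genes was chosen after its values were seen, as was RpL10Aa, and RpS5b is the most abundant of the list.

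The length of the 3′ untranslated region in use showed no like trend. The median log2 difference was -0.05 under 100 nt (2667 genes), -0.12 from 100 to under 200 nt, -0.13 from 200 to under 400 nt, -0.10 from 400 to under 800 nt and 0.07 at 800 nt and over (613 genes). Of all genes tested, 8324 were listed in all 4 libraries, 282 in both 80S libraries and neither 2-3 ribosome library, and 32 in both 2-3 ribosome libraries and neither 80S library, where the 80S libraries were the deeper ones. CG18628, a top gene of both 2-3 ribosome libraries, had 43020 and 41270 CPM in 2-3 ribosomes and 50850 and 15710 CPM in 80S, so its 80S libraries differed more from each other than the pools did. A like gap within the 80S pool was seen in RpS13, at 5413 and 3877 CPM in 2-3 ribosomes and 4151 and 131 CPM in 80S.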
